A study of Mus musculus with 6 samples.

Results

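Messenger RNA of the enzymes that build, lengthen and desaturate fatty acids was compared between injured and uninjured mouse optic nerves. The 10 genes were chosen by symbol, as named steps of the pathway, out of 25755 genes in the table. They are Acly, Acaca and Fasn for synthesis, Scd1, Scd2, Fads1 and Fads2 for desaturation, and Elovl1, Elovl6 and Elovl7 for elongation. All 6 mice were NF1flox/flox;hGFAP-Cre, a genotype in which Cre under the human GFAP promoter deletes Nf1 from neuroglial progenitors and the cells they give rise to, in both groups alike. Of these mice, 3 had sham surgery (mice 1 to 3) and 3 had optic nerve crush (ON-CR, mice 4 to 6), when 6 weeks old. Nerves were analysed at 12 weeks, which the labels give as an age of 3 months. No mouse without the Nf1 deletion was compared, and whole nerves were sequenced in bulk, so fewer cells of a type and less RNA per cell cannot be told apart.

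Fatty acid synthesis starts in the cytosol, where ATP citrate lyase (Acly) turns citrate into acetyl-CoA, acetyl-CoA carboxylase (Acaca) makes malonyl-CoA, and fatty acid synthase (Fasn) joins these units into palmitate. Stearoyl-CoA desaturases (Scd1, Scd2) then introduce a double bond, elongases (Elovl genes) add carbons, and the fatty acid desaturases Fads1 and Fads2 act on the polyunsaturated fatty acids. Oligodendrocytes use these fatty acids for the lipids of myelin, and many genes of the pathway are targets of the transcription factors SREBP and LXR.

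The libraries held 17414589 to 23620019 estimated reads on genes, and the deepest ON-CR library was below the shallowest sham library. Values are normalized gene counts as the authors deposited them, and fold changes are differences of log2(value + 1). Sex-linked transcripts also differed between the groups, with Xist at 2.14 to 30.9 in the sham group and 2708 to 6357 in the ON-CR group. Ddx3y, a Y-linked gene, was at 1291 to 1645 in the sham group and at 976, 4.19 and 0 in ON-CR mice 4, 5 and 6, so ON-CR mouse 4 held both. Sex and surgery cannot be told apart for any gene here. Nf1 had a value of 343 to 447 in the sham group and 380 to 438 in the ON-CR group, and since both groups carry the deletion it checks no label.

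All 10 genes had lower values after ON-CR, and for each of them every ON-CR mouse lay below every sham mouse. Of these, 5 fell at an adjusted p at or under 0.05 by limma, namely Scd1, Elovl1, Elovl7, Fads1 and Acly. Such a fall was found for 1.13% of all genes tested and for 5.00% of the 3122 genes with a mean value of at least 1000, a range that holds all 10, while 0.971% and 1.76% rose. Groups without overlap and with lower ON-CR values made up 11.0% of all genes and 26.7% of these abundant genes. The mean after ON-CR was between 50.5% of the sham mean, for Scd1, and 82.6%, for Acaca. The median log2 fold change of the 10 was -0.58, against 0.03 over all genes and -0.09 over the abundant genes. The unadjusted p by limma was at or under 0.05 for 10 of 10, against 8.22% of all genes and 23.9% of the abundant genes for a lower value. By limma, none of the 10 met the filter of the study's methods, an unadjusted p at or under 0.05 with at least a 2-fold change. In this direction, 1.49% of all genes and 1.47% of the abundant genes met it by limma. The study applied this filter to DESeq2 results without genes of low coverage, so its own outcome for these genes may differ. The paper's results name a further, stricter filter, which was not applied here. Scd1, at a log2 fold change of -0.98, lay just under the 2-fold limit and met the filter in 4 of the 6 fits that left out a mouse, those without sham mouse 2, sham mouse 3, ON-CR mouse 4 or ON-CR mouse 5 (log2 fold change down to -1.07).

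**Figure D1:**
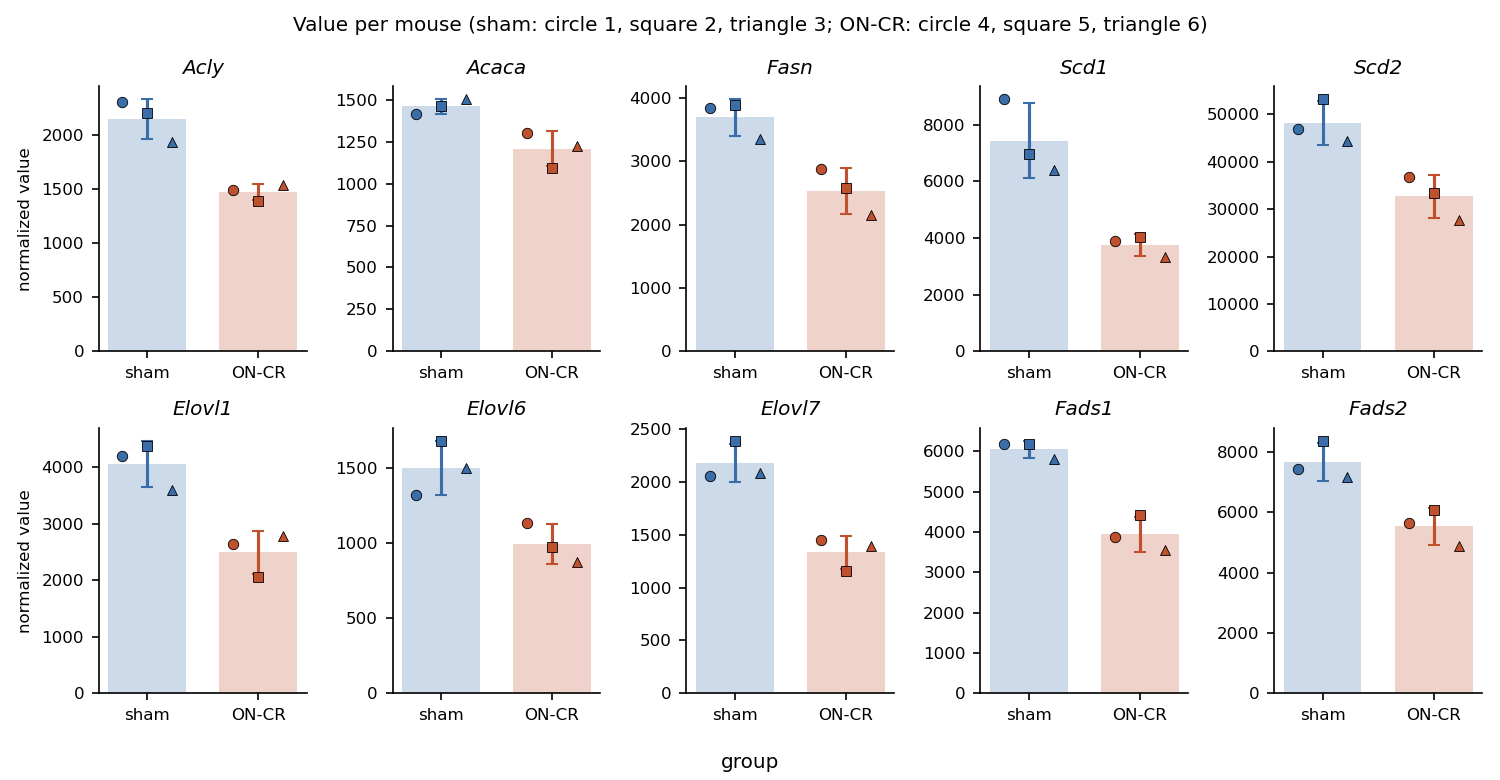
Normalized value (vertical axis, from 0) of each of the 10 genes in sham and ON-CR mice. Each point is 1 mouse, bars are group means and error bars are SD (n = 3), and in every panel the 3 ON-CR points lie below the 3 sham points.

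The number of calls rested on single mice. Without sham mouse 2 or without ON-CR mouse 6, 0 of the 10 kept an adjusted p at or under 0.05 by limma, while the unadjusted p was at or under 0.05 for 9 in both fits. Calls over all genes, in either direction, fell as well, from 2.10% with every mouse to 0.478% and 0.260% in these fits. Leaving out sham mouse 1 or sham mouse 3 left Scd1 alone, leaving out ON-CR mouse 4 left Scd1 and Elovl7, and leaving out ON-CR mouse 5 left 5 genes, with Fads2 in place of Acly. Over all genes, 0.745% passed without sham mouse 1 and 1.00% without sham mouse 3. Without ON-CR mouse 4 or ON-CR mouse 5, these shares were 1.79% and 3.32%. All 10 genes stayed lower after ON-CR in every one of these fits.

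**Figure D2:**
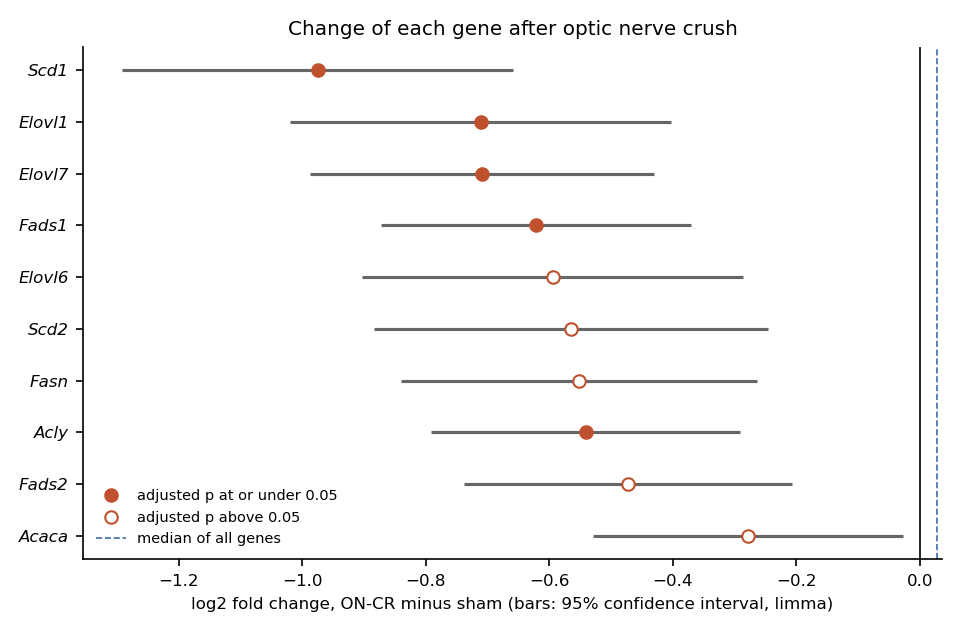
Log2 fold change of each gene (horizontal axis, ON-CR minus sham) with its 95% confidence interval from limma. Filled points had an adjusted p at or under 0.05, and the dashed line is the median of all genes, at 0.03. Every interval lies below 0.

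Promoter sequence from RefSeq on GRCm38.p6 was found for 7 of the 10 genes, and not for Scd1, Scd2 and Fads1. The 250 bases before the start are shown for Acly, Elovl1 and Elovl7, which fell, and for Fasn, which gives the pathway its central enzyme. Capitals mark a CCAAT box, bound by NF-Y, or a GC box of the letters GGGCGG, bound by Sp1, on either strand.
Acly: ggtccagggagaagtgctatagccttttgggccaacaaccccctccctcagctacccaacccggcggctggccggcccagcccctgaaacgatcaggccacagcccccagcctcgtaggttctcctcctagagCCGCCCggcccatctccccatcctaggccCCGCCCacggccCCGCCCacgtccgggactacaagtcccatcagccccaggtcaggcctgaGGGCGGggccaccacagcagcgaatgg
Fasn: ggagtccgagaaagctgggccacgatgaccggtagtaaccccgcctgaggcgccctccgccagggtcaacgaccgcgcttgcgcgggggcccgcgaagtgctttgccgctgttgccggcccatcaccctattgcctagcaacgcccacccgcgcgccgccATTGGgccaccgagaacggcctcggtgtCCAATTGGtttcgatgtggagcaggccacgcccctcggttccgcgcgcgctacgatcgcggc
Elovl1: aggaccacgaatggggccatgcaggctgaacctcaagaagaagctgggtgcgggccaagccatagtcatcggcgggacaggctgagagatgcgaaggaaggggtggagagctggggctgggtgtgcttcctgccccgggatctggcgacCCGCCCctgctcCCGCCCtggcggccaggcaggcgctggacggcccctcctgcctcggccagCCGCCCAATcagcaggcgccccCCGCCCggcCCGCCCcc
Elovl7: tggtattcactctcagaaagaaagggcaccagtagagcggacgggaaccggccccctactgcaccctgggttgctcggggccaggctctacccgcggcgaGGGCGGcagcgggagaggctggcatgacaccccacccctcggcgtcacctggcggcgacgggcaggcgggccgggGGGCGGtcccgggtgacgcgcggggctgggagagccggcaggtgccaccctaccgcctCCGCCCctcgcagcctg
These stretches are chr11:100528001-100528250 on the minus strand for Acly, chr11:120824548-120824797 on the minus strand for Fasn, chr4:118427843-118428092 on the plus strand for Elovl1, and chr13:108214154-108214403 on the plus strand for Elovl7. The CCAAT box was found in Fasn, 90, 62 and 59 bases before the start with the last 2 overlapping, and in Elovl1, 35 bases before it and overlapping a GC box. It occurs in 33.8% of 32851 promoters of this length. A GC box was found in Acly, Elovl1, Elovl7 and Fads2, and it occurs in 32.7% of promoters. The SREBP consensus TCACNCCAC (found in 1.05% of promoters) and the E-box CACGTG (6.02%) were searched on both strands and had 0 matches in the 8 promoters of these genes. Elovl1 has 2 of these promoters, and its CCAAT box is only in the one shown. The stretches for Acaca (chr11:84195188-84195437) and Fads2 and the second for Elovl1 lie wholly or mostly inside the annotated genes, past their starts. Sequence before the annotated start of Acaca was not searched.

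Of the synthesis genes, Acly fell and Fasn and Acaca had lower means without passing the test. Acly (ENSMUSG00000020917.17, chromosome 11 of GRCm38, 100476353 to 100528000) was at 2305, 2201 and 1938 in sham mice 1, 2 and 3 and at 1489, 1394 and 1538 in ON-CR mice 4, 5 and 6. The 3 ON-CR mice were close to each other and the highest of them was 401 below the lowest sham mouse. On the log2 scale the difference was -0.54 (standard error 0.11, limma, adjusted p = 0.0398), and the adjusted p was above 0.05 in each of the 6 fits that lacked a mouse, from 0.0553 to 0.204.

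Fasn, the enzyme that makes palmitate (ENSMUSG00000025153.9, chromosome 11, 120805846 to 120824547), was at 3837, 3892 and 3356 in sham mice and at 2872, 2576 and 2149 in ON-CR mice. Sham mouse 3 was the lowest of its group and still above ON-CR mouse 4, the highest of the other. On the log2 scale the difference was -0.55 (95% confidence interval -0.84 to -0.26, limma, adjusted p = 0.0633). Acaca, whose product malonyl-CoA feeds both synthesis and elongation (ENSMUSG00000020532.18, chromosome 11, 84129672 to 84401651), was at 1413, 1461 and 1505 in sham mice and at 1302, 1095 and 1221 in ON-CR mice. Its groups were separated by 110, the smallest gap of the 10, and its log2 fold change of -0.28 (95% confidence interval -0.53 to -0.03, limma, adjusted p = 0.269) was the smallest. In the annotated transcripts of Acaca 30.4% of all stretches of 50 bases also occur in transcripts of other genes. Gm5182, whose own value was 29.6 to 59.7, shares more of them than any other single gene. How the counting divided such reads was not tested.

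Scd1 had the largest change of the 10. Scd1 (ENSMUSG00000037071.3, chromosome 19, 44394455 to 44407879) was at 8918, 6952 and 6402 in sham mice and at 3879, 4051 and 3321 in ON-CR mice. Sham mouse 1 was well above the other sham mice, and the groups were 2351 apart. Scd1 fell by 0.98 on the log2 scale (standard error 0.14, limma, adjusted p = 0.00816). It kept an adjusted p at or under 0.05 in 12 of 14 other settings, the exceptions being the fits without sham mouse 2 and without ON-CR mouse 6, in which the highest adjusted p by limma was 0.0902.

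Scd2, the stearoyl-CoA desaturase most abundant in this tissue (ENSMUSG00000025203.6, chromosome 19, 44293674 to 44306864), was at 46856, 53329 and 44335 in sham mice and at 36896, 33354 and 27814 in ON-CR mice. Its log2 fold change of -0.56 (95% confidence interval -0.88 to -0.25) had an adjusted p of 0.0814 by limma. The ratio of Scd1 to Scd2 within a library, which no scaling between libraries can move, was 0.190, 0.130 and 0.144 in sham mice and 0.105, 0.121 and 0.119 in ON-CR mice. The ratio was thus lower in every ON-CR mouse, by 0.41 on the log2 scale, and the exact permutation test, two-sided, gave p = 0.1, the smallest that 3 against 3 allow. Without sham mouse 1, this difference was 0.25. Of the 50-base stretches of Scd1 4.56% also occur in other genes, Scd3 and Scd2 first, so the reads of the family are not fully separable.

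Both front-end desaturases had lower values, and Fads1 passed the test. Fads1, which acts in the last steps that yield arachidonic and eicosapentaenoic acid (ENSMUSG00000010663.5, chromosome 19, 10182888 to 10196877), was at 6165, 6173 and 5797 in sham mice and at 3877, 4409 and 3545 in ON-CR mice. The sham mice were close to each other, and all were at least 1387 above the ON-CR mice. Fads1 fell by 0.62 on the log2 scale (standard error 0.11, limma, adjusted p = 0.0232). When single mice were left out, the limma value lay between 0.00994 and 0.144, and it passed only without ON-CR mouse 5.

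Fads2, which catalyses the first desaturation of linoleic and alpha-linolenic acid (ENSMUSG00000024665.8, chromosome 19, 10062765 to 10101746), was at 7425, 8363 and 7168 in sham mice and at 5642, 6057 and 4873 in ON-CR mice. Its log2 fold change was -0.47 (95% confidence interval -0.74 to -0.21, limma, adjusted p = 0.0801). The ratio of Fads1 to Fads2 was 0.830, 0.738 and 0.809 in sham mice and 0.687, 0.728 and 0.727 in ON-CR mice, a log2 difference of -0.15 for which the same exact permutation test gave p = 0.1. The groups of this ratio did not overlap, although sham mouse 2 and ON-CR mouse 5 were only about 0.0102 apart.

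Elovl1 and Elovl7 fell, and Elovl6 did not pass the test. Elovl1, which makes the very long chains of sphingolipids (ENSMUSG00000006390.15, chromosome 4, 118428093 to 118432953), was at 4205, 4384 and 3606 in sham mice and at 2644, 2058 and 2785 in ON-CR mice. It fell by 0.71 on the log2 scale (standard error 0.14, limma, adjusted p = 0.0303). Cdc20, at 18.0 to 64.4, overlaps 53 bases of its exons on the other strand. Elovl7, an elongase of saturated long chains (ENSMUSG00000021696.9, chromosome 13, 108214404 to 108285683), was at 2058, 2387 and 2085 in sham mice and at 1450, 1157 and 1396 in ON-CR mice. It also fell by 0.71 (standard error 0.13, limma, adjusted p = 0.0210). Without single mice, the adjusted p by limma ranged from 0.0370 to 0.183 for Elovl1 and from 0.0263 to 0.136 for Elovl7. Elovl6, which lengthens palmitate to stearate (ENSMUSG00000041220.10, chromosome 3, 129532355 to 129638495), was at 1319, 1682 and 1500 in sham mice and at 1133, 975 and 874 in ON-CR mice. Sham mouse 1 was the sham mouse nearest to the ON-CR group, and the log2 fold change was -0.59 (95% confidence interval -0.90 to -0.29, limma, adjusted p = 0.0615).

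The lowest ON-CR mouse was not the same for all 10 genes. ON-CR mouse 5 was lowest for Acly, Acaca, Elovl1 and Elovl7, where it held 64.9%, 75.0%, 50.6% and 53.2% of the sham mean. ON-CR mouse 6 was lowest for Fasn, Scd1, Scd2, Elovl6, Fads1 and Fads2, with values between 44.7% of the sham mean for Scd1 and 63.7% for Fads2. ON-CR mouse 4 was lowest for 0 of the 10 genes. Among the sham mice, mouse 2 was highest for 7 genes. The median over the 10 genes was 71.5%, 67.1% and 61.2% of the sham mean for ON-CR mice 4, 5 and 6, against 99.6%, 107% and 92.9% for sham mice 1, 2 and 3.

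**Figure D3:**
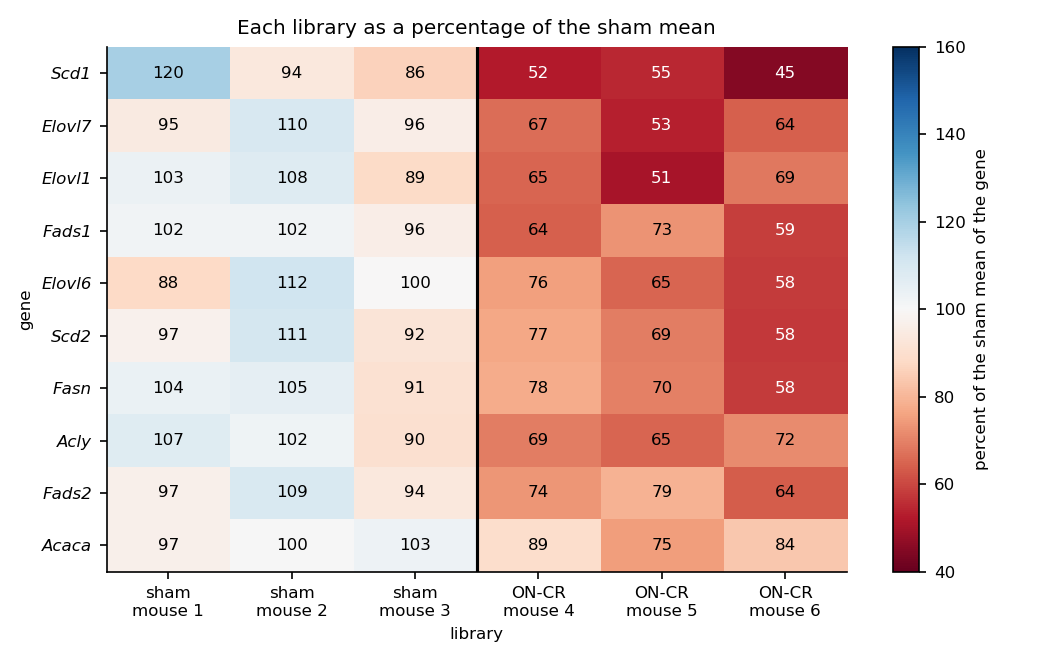
Value of each gene in each library as a percentage of the gene's mean over the 3 sham mice (colour scale and printed numbers), with genes ordered by their mean in ON-CR mice. ON-CR mouse 5 holds the lowest values of Elovl1 and Elovl7, and ON-CR mouse 6 those of Scd1, Scd2, Fasn, Elovl6, Fads1 and Fads2.

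Levels per kilobase of the transcript with the longest coding part set Scd2 apart from the rest. In sham mice Scd2 was at 8831 ± 850 per kilobase, followed by Fads2 at 2429 ± 200 and Elovl1 at 2245 ± 225 (SD, n = 3 each), and Fads2 and Elovl1 overlapped. Fads1 (1747 ± 62.2) and Scd1 (1536 ± 274) came next and overlapped with each other, as did Elovl7 (542 ± 45.5) and Acly (485 ± 42.7). Fasn, Elovl6 and Acaca were lowest, at 368 ± 29.3, 252 ± 30.5 and 153 ± 4.87 per kilobase, without overlap. The order between Fads2 and Elovl7 depends on the length used. Per kilobase of all exons merged, Scd2 and Fads2 were still first, at 8817 and 2322, but Scd1 (1518) came before Elovl1 (1491) and Fads1 (1256), and Acaca was at 85.5. Scd2 made up 55.5% to 58.7% of the summed value of the 10 genes in sham libraries and 56.2% to 60.3% in ON-CR libraries. The sum was 0.400% to 0.434% of a sham library and 0.262% to 0.323% of an ON-CR library.

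The 7 genes that supply the pathway with carbon and reducing power all had lower means after ON-CR. Of these, 3 fell and 0 rose at an adjusted p at or under 0.05, with a median log2 fold change of -0.31. Slc25a1, the carrier that exports citrate from mitochondria, was at 865, 1055 and 844 in sham mice and at 390, 256 and 275 in ON-CR mice. This was a log2 fold change of -1.60 (limma, adjusted p = 0.00264), larger than that of any of the 10 enzymes, and it passed with every mouse left out in turn. Acss2, which makes acetyl-CoA from acetate, fell from 997 ± 109 to 508 ± 26.7 (SD, n = 3 each, log2 fold change -0.97, limma, adjusted p = 0.00561), and Gss and Ggt7 overlap its exons on the other strand. Idh1, a cytosolic source of NADPH, fell by 0.63 on the log2 scale (limma, adjusted p = 0.0339). Without sham mouse 2 or ON-CR mouse 6, Acss2 and Idh1 no longer passed, nor did Idh1 without sham mouse 1 or ON-CR mouse 4. The other NADPH sources Me1, Pgd and G6pdx had log2 differences of -0.31, -0.15 and -0.04, with overlapping groups, and Acacb, the second acetyl-CoA carboxylase, had -0.25 (limma, adjusted p = 0.442, 0.619, 0.917 and 0.685).

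Of 15 further elongation and desaturation genes, 1 fell and 0 rose, with a median log2 fold change of -0.23. This was Elovl5, the elongase of polyunsaturated fatty acids, which was at 5617, 5985 and 5498 in sham mice and at 4364, 3444 and 3897 in ON-CR mice (log2 fold change -0.55, limma, adjusted p = 0.0408). It passed, of the 6 fits that left out a mouse, in the one without ON-CR mouse 4. Elovl2, of the same polyunsaturated branch, had a log2 fold change of -0.54 and Scd3 one of -0.67 (limma, adjusted p = 0.188 and 0.0586). Fads3 stood on the other side, with values of 119, 161 and 182 in sham mice and of 222, 236 and 305 in ON-CR mice, a log2 fold change of 0.73 (limma, adjusted p = 0.121).

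Among 17 genes that control lipogenesis 2 fell and 0 rose, with a median log2 fold change of -0.20. Insig1, which retains the SREBP precursor in the endoplasmic reticulum and is itself a target of SREBP, was at 3128, 2703 and 2453 in sham mice and at 1458, 1078 and 949 in ON-CR mice. Its log2 fold change was -1.27 (limma, adjusted p = 0.00511), and its adjusted p became 0.0526 in the fit that lacked ON-CR mouse 6. Mid1ip1, a protein that promotes the polymerization of acetyl-CoA carboxylase, fell by 0.76 on the log2 scale (limma, adjusted p = 0.0171), although it no longer passed without sham mouse 1, sham mouse 2 or ON-CR mouse 6. Gm14493 overlaps 543 of its exon bases on the other strand.

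Transcripts of the transcription factors themselves did not pass. Srebf1, which encodes the SREBP of fatty acid synthesis, had a mean of 1520 ± 140 for sham and of 1516 ± 145 for ON-CR (SD, n = 3 each), with a 95% confidence interval of the log2 fold change from -0.28 to 0.27 (limma, adjusted p = 0.990). Srebf2 was lower in every ON-CR mouse (log2 fold change -0.45, limma, adjusted p = 0.0796), and Thrsp, a lipogenic partner of Mid1ip1, had -0.51 (limma, adjusted p = 0.0848). Mlxipl, which encodes the carbohydrate-responsive factor ChREBP, had higher values in every ON-CR mouse (log2 fold change 0.71, limma, adjusted p = 0.207). The LXR genes Nr1h2 and Nr1h3 had log2 differences of -0.40 and -0.12 (limma, adjusted p = 0.180 and 0.797).

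Handling of fatty acids outside synthesis was mixed. Of 13 genes of activation, uptake and binding, 2 fell and 0 rose, with a median log2 fold change of -0.14. Acsl3, an acyl-CoA synthetase of the endoplasmic reticulum and lipid droplets, was at 3042, 3645 and 3298 in sham mice and at 1480, 1367 and 963 in ON-CR mice, and it passed with every mouse left out (log2 fold change -1.41, limma, adjusted p = 0.00297). Utp14b overlaps 244 bases of its exons on the same strand. Slc27a4, a fatty acid transport protein, fell by 0.75 on the log2 scale (limma, adjusted p = 0.0336) and no longer passed without sham mouse 1, sham mouse 2, ON-CR mouse 4 or ON-CR mouse 6. Acsl1 had a log2 fold change of -0.68, Fabp3 of 0.60 and Cd36 of 0.55 (limma, adjusted p = 0.0549, 0.476 and 0.574).

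Of the 14 genes of fatty acid oxidation, the 5 of mitochondrial fatty acid synthesis and the 9 of glycerolipid storage, 0 passed in limma, while unadjusted p-values at or under 0.05 were found for 1, 0 and 4 of them. The 1 of oxidation was lower, and of the 4 of storage 2 were lower and 2 higher, against 8.22% of all genes lower and 7.37% higher at this p. Their median log2 fold changes were -0.17, -0.19 and -0.09. Acadm, a dehydrogenase of medium-chain fatty acids, had -0.38, Ehhadh -0.37 and Cpt2 -0.30 (limma, adjusted p = 0.127, 0.572 and 0.325). In mitochondrial synthesis, the values were 0.33 for Oxsm, -0.23 for Mecr and -0.19 for Ndufab1 (limma, adjusted p = 0.554, 0.493 and 0.420). Plin2, a coat protein of lipid droplets, had a log2 fold change of 0.53, Agpat2 of -0.68, Lipe of -0.57 and Gpam of 0.50 (limma, adjusted p = 0.109, 0.208, 0.0827 and 0.0717).

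**Figure D4:**
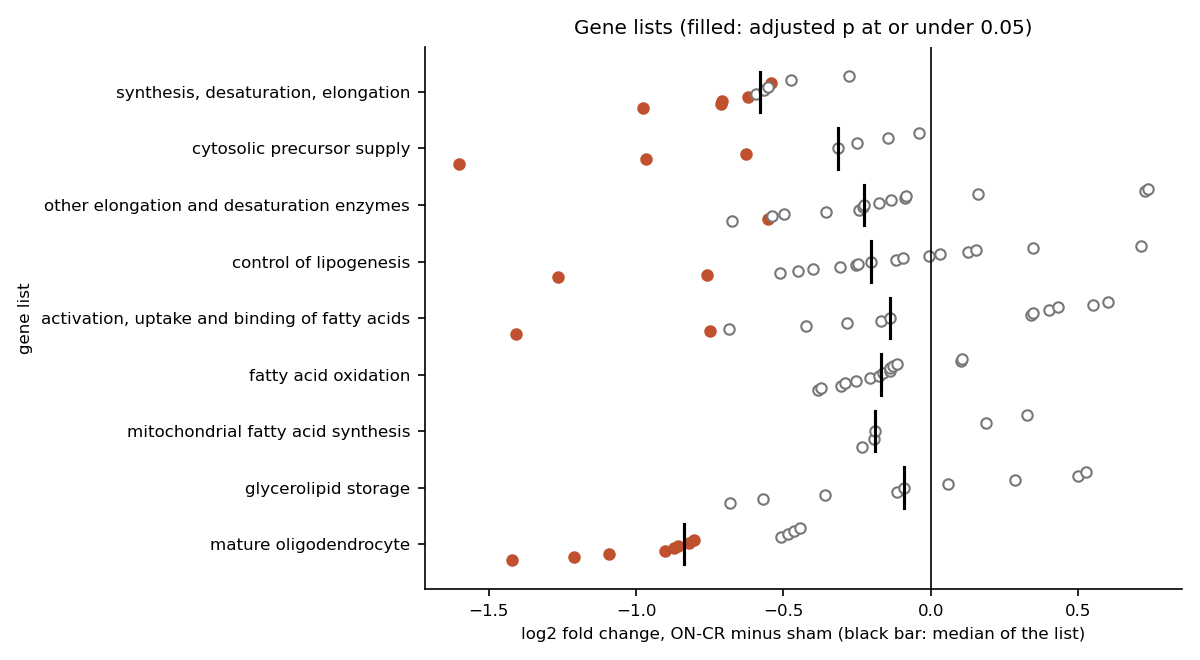
Log2 fold change (horizontal axis, ON-CR minus sham) of the genes of 9 lists, 1 point a gene, with a black bar at the median of each list. Filled points had an adjusted p at or under 0.05, and all filled points lie below 0. The 10 enzymes of synthesis, desaturation and elongation have a median of -0.58 and mature oligodendrocyte markers one of -0.84.

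Markers of mature oligodendrocytes moved with these enzymes. All 12 had a lower mean after ON-CR, 8 of them fell at an adjusted p at or under 0.05 by limma, and their median log2 fold change was -0.84. Each of these 8 lost its call without at least 1 of the mice, the highest adjusted p by limma being 0.0854 for Mobp. Their summed value was 1450480 to 2026570 in sham mice and 739168 to 917084 in ON-CR mice, with none of the 12 at 0. The mean log2 value of the 12 markers was below the sham mean by 0.63, 1.07 and 0.77 in ON-CR mice 4, 5 and 6, and that of the 10 enzymes by 0.50, 0.62 and 0.68. Taken relative to these markers within each library, 9 of the 10 enzymes had a higher mean after ON-CR. The differences ran from 0.11 for Elovl7 and Elovl1 to 0.54 for Acaca on the log2 scale, and Scd1 had a lower mean, at -0.15. Because the markers themselves fell, a gene without any change also comes out higher on this relative scale. The median log2 fold change over all genes, not taken relative to the markers, was 0.03. The groups did not overlap on this relative scale for Acly and Acaca. The share of all genes that were higher, or without overlap, on this scale was not computed. Neither count therefore sets these enzymes apart from other genes. The part of the markers in the fall of the enzymes was not tested.

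Markers of other cell types were examined in the same way. Of 5 markers of oligodendrocyte precursors 0 passed (median log2 fold change -0.26, summed value 5641 to 5824 in sham and 4745 to 5393 in ON-CR mice), and of 7 astrocyte markers S100b fell, by 0.75 on the log2 scale with an adjusted p of 0.0185 by limma (list median -0.19, 121521 to 149926 against 113477 to 128632). The other 6 astrocyte markers did not pass and had both signs. Aqp4 (log2 fold change 0.43) and Slc1a3 (0.31) had higher values in every ON-CR mouse, Aldoc (-0.62) lower values in every ON-CR mouse, and Aldh1l1 (0.14), Slc1a2 (-0.19) and Gja1 (-0.30) had overlapping groups. Of 6 microglia markers Aif1 rose, by 1.22 on the log2 scale with an adjusted p of 0.0260 by limma, and their summed value was 13196 to 17584 in sham mice and 16114 to 23975 in ON-CR mice (median 0.51). Among those that did not pass, Cx3cr1 (0.72) and Csf1r (0.33) had higher means, whereas P2ry12 (-0.35) and Tmem119 (-0.27) had lower ones, Tmem119 in every ON-CR mouse. Of the 4 adipocyte markers analysed, Plin1, Cfd and Fabp4 were at 0 to 9.74 in all libraries. Plin4 had a mean of 96.3 ± 6.75 in sham mice (SD, n = 3) and was higher in every ON-CR mouse, at 113 to 277, and the 4 summed to 103 to 112 in sham and 121 to 289 in ON-CR mice. Adipoq, Cidec, Lep and Pck1 were not found by symbol among the 25755 genes and so were not analysed. The 3 markers of oil-producing glands of the eye that were analysed summed to 372 to 419 and to 273 to 363, with Mc5r at 210 to 244 in sham and 143 to 180 in ON-CR mice (log2 fold change -0.48), Far2 at 123 to 191 over all libraries and Awat2 at 0 to 18.0. Awat1, Dgat2l6 and Krt79 were likewise not found by symbol.

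Schwann cells, which make the myelin of peripheral nerves, were represented by 5 markers that summed to 66.7 to 98.3 in sham mice and 99.6 to 220 in ON-CR mice. Of these Egr2, which other cells express as well, rose by 2.04 on the log2 scale, with an adjusted p of 0.0250 by limma. The median log2 fold change was 0.60 for Schwann cell, -0.39 for fibroblast, -0.63 for red blood cell, -0.48 for oil gland and -0.28 for adipocyte markers, and 0 of the fibroblast, red blood cell, gland and adipocyte markers passed. Fibroblast markers summed to 14346 to 17813 in sham and 9546 to 14319 in ON-CR mice, and those of red blood cells to 269397 to 509290 and 136974 to 378023. Their part in the results was not tested.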

How the data were processed

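RNA from 6 optic nerve samples was sequenced by the authors on an Illumina HiSeq after SMARTer Ultra Low library construction, and the labels name 1 mouse per library. Reads were aligned and quantified with DRAGEN against the Ensembl mouse genome, assigned to mm10 gene models and scaled by median normalization in Partek 10.0. The deposited values are a normalized signal per gene, not whole counts. From 69.4% to 71.4% of low values per library were whole multiples of the value of 1 read (tolerance 0.02 reads), too few for a count test, so depth is an estimate.

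All 25755 genes were tested on log2(value + 1) by limma 3.58.1 (R 4.3.3), the prior variance following mean expression, and p-values were adjusted by Benjamini-Hochberg. No gene was filtered out. The procedure was tested on simulated data, and calls were required there only for changes larger than those of the 10 genes. Every adjusted p is from limma. Fold changes on this scale understate changes of low values. Positions, overlaps and transcript lengths are from GENCODE M21 on GRCm38, and promoters from RefSeq on GRCm38.p6, searched with Python 3.11.15. Genes named beside the 10 are those of the lists that passed, the 3 of each list with the largest change of the others at a mean value of at least 50, and fixed control genes. Gm5182, Cdc20 and other overlapping genes and the markers were named for checks. Gpam and G6pdx were named after their values were seen. The 10 genes and all lists were chosen with earlier results of these data known. Some results for single genes are not reported here.

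The alternatives fixed with the design were pseudocounts 0.5 and 2, upper-quartile and TMM scaling (both written anew for these values), a mean value of at least 10, robust empirical Bayes, array quality weights and leaving out each mouse. Library-total scaling was added after the data were seen. Replicates within a group differed by more than counting noise (chi-square per degree of freedom 15.1 to 42.6).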

Additional observations from a re-analysis of the deposited data

How the results depend on the processing

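The direction of all 10 genes held in all 14 other settings. The count of the 10 with an adjusted p at or under 0.05 by limma, 5 as reported, was 8 with robust empirical Bayes, 8 with array quality weights and 3 with library-total scaling, chosen after seeing the data. It was 0 to 5 when each mouse was left out, and the number over all genes, 540 as reported, was then 67 to 854. Library-total scaling shifted the median of all genes to 0.15 on the log2 scale and called 616 genes, 31.7% of them lower against 53.7% as reported, while the 10 genes lay between -0.85 and -0.15. The other settings, pseudocounts 0.5 and 2, upper-quartile and TMM scaling and a mean value of at least 10, left the count at 5. Over all settings the adjusted p by limma was 0.00257 to 0.0902 for Scd1 and 0.216 to 0.539 for Acaca. The log2 difference of the Scd1 to Scd2 ratio was -0.53 to -0.25 and that of the Fads1 to Fads2 ratio -0.20 to -0.11 with each mouse left out. Why the counts moved was not tested, and the fits that left out a mouse also had fewer mice. No paired analysis was possible because the mice carry different numbers in the 2 groups. With 3 mice a group, the exact test cannot go below 0.1, and the p-values measure the spread between these mice only.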
